A study of Mus musculus with 15 samples.

Results

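The ligands by which tumour cells restrain T cells, NK cells and macrophages were examined as a group of 10 genes, chosen by name and found by symbol among the 34432 genes of both tables of normalized counts: Cd274, Pdcd1lg2, Cd80, Cd276, Lgals9, Cd47, Nt5e, Pvr, Nectin2 and Tnfrsf14. RNA was sequenced from 15 libraries of CT26, a mouse colon tumour cell line, in 2 experiments with 3 libraries in each of 5 groups. In the knockdown experiment, shControl cells carried a control hairpin and shPrmt1 cells a hairpin against Prmt1 that DOX (doxycycline) induces, with DOX given for 3 days, and the labels do not say whether shControl cells were given DOX. In the inhibitor experiment, cells labelled WT were given vehicle, MS023 at 6 µM for 48 hours or GSK3368715 at 6 µM for 48 hours. Both compounds inhibit PRMT1, the main enzyme that places asymmetric dimethylation on arginine, and neither acts on PRMT1 alone among its family. The question was whether loss or inhibition of PRMT1 changed the RNA of these ligands, each group against its own control.

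Immune checkpoints are pairs of a ligand on one cell and a receptor on an immune cell that lower the immune cell's activity. PD-L1 and PD-L2 on a tumour cell engage PD-1 on T cells, CD47 engages SIRPα on macrophages and holds back phagocytosis, and galectin-9 engages TIM-3. Transcription of the PD-L1 gene is known to be raised by interferons, through the JAK kinases and the transcription factor IRF1. Tumour cells themselves make these ligands, so their RNA can be read in a culture of tumour cells alone.

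The 2 tables were normalized separately, and levels were compared within a table only. Recovered reads on genes ran from 17284091 to 29233738 per library in the knockdown experiment and from 40119305 to 93697833 in the inhibitor experiment, so that 3 reads, taken as the floor for a fold, were worth 2.16 to 3.64 and 1.87 to 4.46 normalized counts. Prmt1 RNA, which checks the labels, fell from 5646 ± 62.2 to 704 ± 49.8 normalized counts with the hairpin (SD, n = 3 each), and the lowest shControl library, at 5601, was far above the highest shPrmt1 library, at 761. Among the markers of the labelled cell type, Epcam and Cldn7 were at 0 in all 15 libraries, Cdh1 had a mean of at most 1.48 normalized counts in any group, and Krt18 and Krt20 were present, with means of at least 431 and 173. All 5 mesenchymal markers (Vim, Fn1, Cdh2, Zeb1 and Twist1) were present. The epithelial markers, 8 in all, summed to 719 to 801 normalized counts in shControl, 536 to 656 in shPrmt1, 1235 to 1401 in vehicle, 1748 to 1841 in MS023 and 1392 to 1585 in GSK3368715 libraries, and their part in the results was not tested. The 16 leukocyte markers summed to 42.0 to 57.6 and 35.4 to 58.2 in the shControl and shPrmt1 libraries and to 240.2 to 309 with vehicle, 265 to 315 with MS023 and 236 to 287 with GSK3368715, most of it from Cd68, while Cd3e, Ncr1 and Klrb1c were at 0 in all groups. Fewer cells of a type and less RNA per cell cannot be told apart in such samples.

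Of the 10 ligand genes, 8 passed the filter on low values in both experiments. After Prmt1 knockdown, Cd274, Cd80, Cd276, Lgals9 and Cd47 rose, between 1.30-fold and 1.96-fold, and none fell at the threshold. MS023 raised Cd274, Lgals9, Nectin2 and Tnfrsf14 and lowered Pvr, and GSK3368715 raised Cd274 and Lgals9 and lowered Pvr. The MS023 and GSK3368715 comparisons share their vehicle libraries, so their calls are not independent of each other. A gene was called when limma gave an adjusted p under 0.05 on log2(normalized count + 1), a scale on which genes with few reads appear to change less than they do. By this rule 5 of the 8 ligand genes were called in the knockdown, all higher, where 14.7% of all genes tested were called, 7.5% higher and 7.17% lower. With MS023 5 were called, 4 higher and 1 lower, against a background of 27.9%, of which 13.7% higher and 14.1% lower. With GSK3368715 3 were called, 2 higher and 1 lower, against 9.64%, of which 5.16% higher and 4.47% lower. These backgrounds moved when a library was left out, from 1684 genes called in the knockdown to 652, 883 or 723 when shControl 1, 2 or 3 was dropped and 1072 when shPrmt1 3 was, from 3625 with MS023 to 2409 without MS023 2, and from 1254 with GSK3368715 to 586 without vehicle 3, 757 without GSK3368715 1 and 778 without GSK3368715 3. The libraries of the 2 groups did not overlap for 6 of the 8 genes in the knockdown (38% of all genes tested), 6 with MS023 (44.5%) and 4 with GSK3368715 (27.7%). The median log2 fold change of the 8 genes was 0.66 in the knockdown, 0.35 with MS023 and 0.25 with GSK3368715. Over all genes tested the medians were -0.004, 0.003 and 0.0004. Tnfrsf14 is among the 8 in the knockdown only with the help of the shPrmt1 libraries, which carried it past the filter. Its value there is no support for a change, and the knockdown median includes it.

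**Figure D1:**
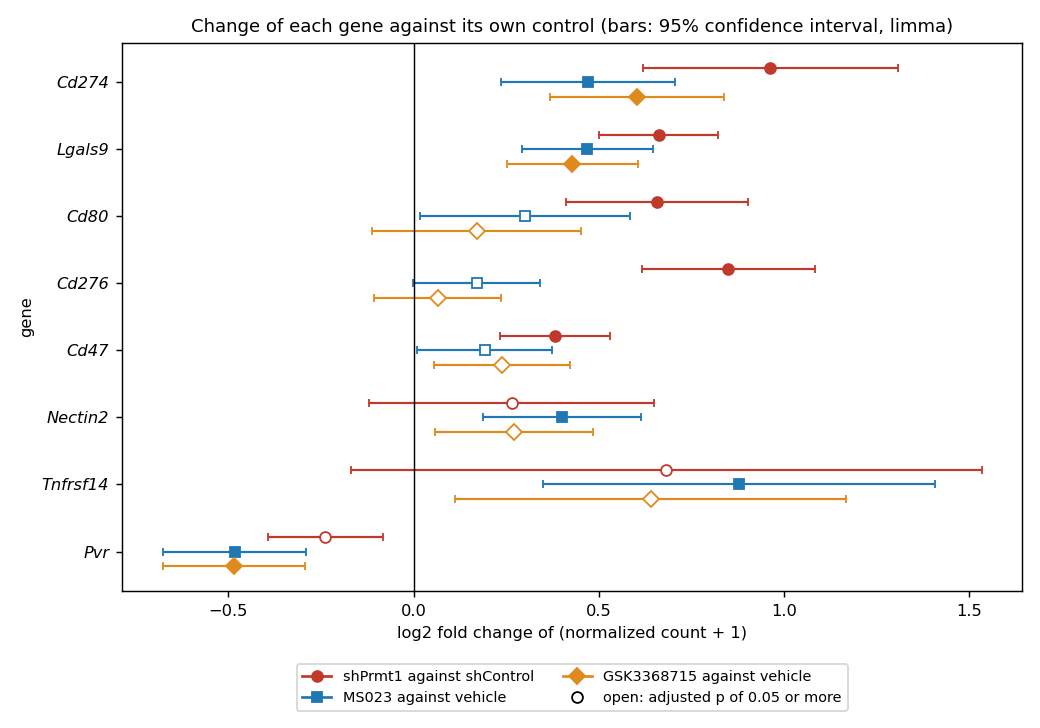
Log2 fold change of normalized count + 1 (horizontal axis) of the 8 tested ligand genes against their own control, for shPrmt1 (circles), MS023 (squares) and GSK3368715 (diamonds), with 95% confidence intervals from limma; filled symbols were called. Cd274 and Lgals9 are filled and right of 0 in all 3 comparisons, and Pvr is left of 0 in all 3 and filled for the 2 inhibitors.

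Cd274 (ENSMUSG00000016496, chromosome 19 of mm10, 29367455 to 29388095, plus strand) encodes PD-L1. In shControl cells it had 81.0, 65.5 and 68.6 normalized counts, and in shPrmt1 cells 123, 150.3 and 148. No control library reached the lowest knockdown library. The mean rose 1.96-fold, from 71.7 ± 8.20 to 141 ± 14.9 (SD, n = 3 each), a log2 fold change of 0.96 (SE 0.15, limma adjusted p = 0.00500). With vehicle, Cd274 had 721, 521 and 642 normalized counts, with MS023 869.7, 845 and 873, and with GSK3368715 938, 993 and 910.1. Both sets of treated libraries lay above the vehicle libraries, and the GSK3368715 libraries also lay above the MS023 libraries, a separation seen between these compounds in 21.4% of all genes tested. MS023 raised the mean from 628 ± 101 to 863 ± 15 (SD, n = 3 each), a log2 fold change of 0.47 (SE 0.11, limma adjusted p = 0.00826). With GSK3368715 the mean was 947 ± 41.9 (SD, n = 3), a log2 fold change of 0.60 (SE 0.11, limma adjusted p = 0.00700). An antisense gene, AC119228.1, shares 511 of the 3622 exon bases of Cd274, and the strand setting of the authors' counting is not given in the sources used here, so reads of the pair may not be separated.

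Pdcd1lg2 (ENSMUSG00000016498, chromosome 19, 29410919 to 29471161, plus strand), the neighbouring gene for PD-L2, the other ligand of PD-1, had 0 reads in all 15 libraries. At these depths that allows at most 3.64 normalized counts in a knockdown library and 4.46 in an inhibitor library. PD-L2 RNA was therefore not detectable with or without PRMT1 inhibition, and no fold can be given for it.

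Cd80 (ENSMUSG00000075122, chromosome 16, 38455561 to 38496335, plus strand) encodes B7-1, which binds CD28 and CTLA-4 on T cells and PD-L1 on the same cell. It had 131, 132 and 119 normalized counts in shControl and 203, 198 and 203 in shPrmt1 cells. These groups were well apart, with little spread inside each. Knockdown raised the mean 1.58-fold, from 127 ± 6.97 to 201 ± 3.31 (SD, n = 3 each), a log2 fold change of 0.66 (SE 0.11, limma adjusted p = 0.00603). The inhibitor experiment gave 744, 533 and 727 with vehicle, 776, 826 and 843 with MS023 and 681, 840.0 and 719.8 with GSK3368715. All MS023 libraries exceeded all vehicle libraries, whereas GSK3368715 overlapped vehicle. Neither comparison was called, with log2 fold changes of 0.30 for MS023 (95% interval 0.02 to 0.58, limma adjusted p = 0.104) and 0.17 for GSK3368715 (95% interval -0.11 to 0.45, limma adjusted p = 0.442). Without vehicle 2 these became 0.15 and 0.016, and without GSK3368715 2 the latter became 0.083.

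Cd276 (ENSMUSG00000035914, chromosome 9, 58524298 to 58555437, minus strand) encodes B7-H3, a ligand of the B7 family whose receptor is not settled. The shControl libraries held 204, 213 and 237 normalized counts of it and the shPrmt1 libraries 364, 409.7 and 407. The groups were separate, and the mean rose 1.81-fold, from 218 ± 16.7 to 393 ± 26.0 (SD, n = 3 each), a log2 fold change of 0.85 (SE 0.10, limma adjusted p = 0.00146). Vehicle libraries had 1310.1, 1519 and 1279.5 normalized counts, MS023 libraries 1474, 1542 and 1597, and GSK3368715 libraries 1415, 1367 and 1508. The inhibitor groups overlapped vehicle, whose second library was the highest of the 3. Neither inhibitor gave a call, at log2 fold changes of 0.17 for MS023 (limma adjusted p = 0.126) and 0.07 for GSK3368715 (limma adjusted p = 0.646). Without that vehicle library the MS023 value became 0.25 and was called (limma adjusted p = 0.0280, from a range of 0.0280 to 0.340 over 20 alternatives). The GSK3368715 value stayed uncalled and ran from 0.019 without vehicle 3 to 0.14 without vehicle 2. Gm10657, on the opposite strand, shares 416 of the 3658 exon bases of Cd276.

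Whether the knockdown and the inhibitors differed in their effect was tested directly, in a limma fit of all 15 libraries, where 7.63% of 11471 genes were called for a difference between shPrmt1 and MS023 effects and 4.11% for shPrmt1 and GSK3368715. Cd276 was the single ligand gene called in either test. Its change was greater in the knockdown by 0.68 on the log2 scale than with MS023 (SE 0.12, limma adjusted p = 0.00325) and by 0.78 than with GSK3368715 (SE 0.12, limma adjusted p = 0.00164). For Cd274 the knockdown effect exceeded that of MS023 by 0.49 (95% interval 0.13 to 0.86, limma adjusted p = 0.0969) and that of GSK3368715 by 0.36 (95% interval -0.01 to 0.72, limma adjusted p = 0.280). For Cd80 the differences were 0.36 (limma adjusted p = 0.218) and 0.49 (limma adjusted p = 0.124). These 2 genes rest on a vehicle library: without vehicle 2, the differences from MS023 were called for Cd274 (0.62, limma adjusted p = 0.0276) and Cd80 (0.51, limma adjusted p = 0.0332), as was the difference of Cd80 from GSK3368715 (0.64, limma adjusted p = 0.0140). Over all 23 alternatives the adjusted p ran up to 0.196, 0.393 and 0.269 for these differences. The experiments also differ in cells, agents and durations, which cannot be told apart from the means of lowering PRMT1 activity.

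**Figure D2:**
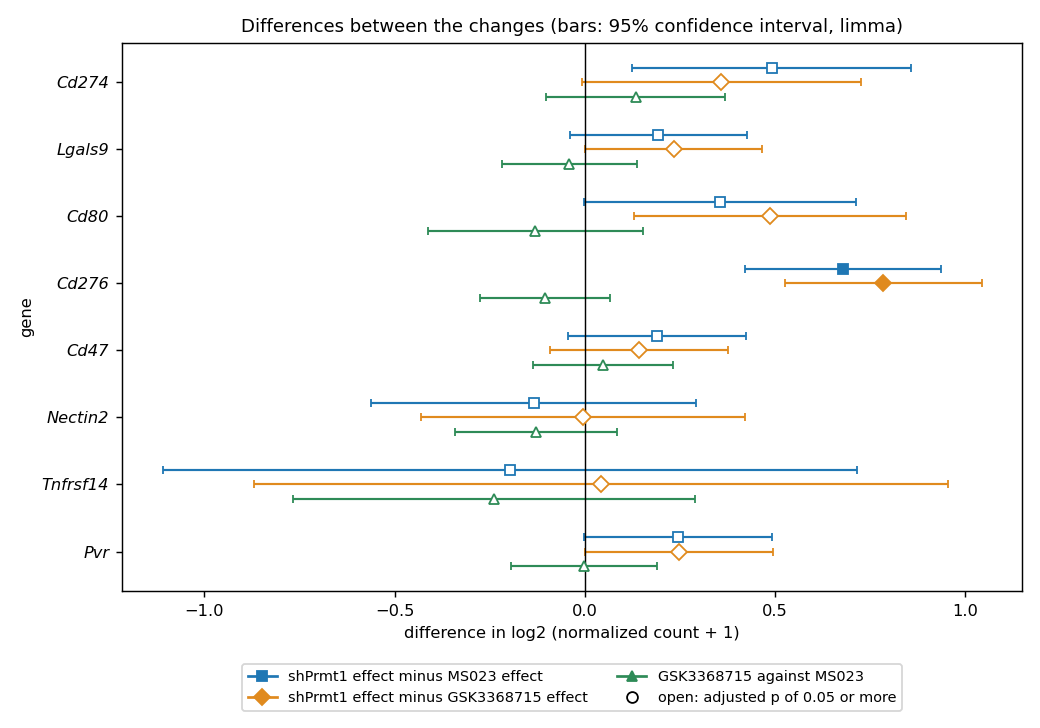
Differences in log2(normalized count + 1) for the 8 tested ligand genes between the shPrmt1 effect and the MS023 effect (squares), the shPrmt1 effect and the GSK3368715 effect (diamonds), and GSK3368715 and MS023 directly (triangles), with 95% confidence intervals from limma. The 2 filled symbols, the calls, both belong to Cd276, at 0.68 and 0.78.

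Lgals9 (ENSMUSG00000001123, chromosome 11, 78962974 to 78984946, minus strand) encodes galectin-9, a secreted sugar-binding protein and ligand of TIM-3. Its libraries read 1259.9, 1218 and 1297 normalized counts in shControl and 2108, 1863 and 2009 in shPrmt1 cells. The mean rose 1.58-fold, from 1258 ± 39.4 to 1993 ± 123 (SD, n = 3 each), a log2 fold change of 0.66 (SE 0.07, limma adjusted p = 0.000824). No library of one group came near the other. With vehicle it had 9073, 7237 and 8172, with MS023 10586, 11297 and 11898, and with GSK3368715 10399, 11397 and 11033 normalized counts. All 6 inhibitor libraries were above the 3 vehicle libraries. MS023 gave a log2 fold change of 0.47 (SE 0.08, limma adjusted p = 0.00198) and GSK3368715 one of 0.43 (SE 0.08, limma adjusted p = 0.00973).

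The stretches before the start sites of Cd274 and Lgals9 are shown because these 2 genes were called higher in each comparison with a control, with Tnfrsf14, described further on, as the other ligand gene whose window holds the ISRE letters. RefSeq windows of GRCm38.p6 covering the 250 bases before a start site were matched by symbol for 9 of the 10 genes and searched on both strands. The letters GAAANNGAAA, a form of the interferon-stimulated response element (ISRE), which interferon regulatory factors bind, were found before Lgals9 and Tnfrsf14 and in 2.98% of the 32851 windows of all genes. TTCNNNGAA, the gamma-activated site (GAS) of interferon-gamma signalling, was in none of the ligand genes' windows and in 7.02% of all. The NF-kB consensus was found before Pdcd1lg2 alone among them, and in 7.25% of all. Stretches inside exons of coding transcripts are left out, except for 10 bases on each side of the Tnfrsf14 match, which one of its transcripts covers. Capitals mark the ISRE match, which in both genes reads on the strand opposite to the gene, and each sequence runs 5′ to 3′ on its gene's strand. They are, in turn, chr19:29367309-29367437 on the plus strand, ending at the base before the start, chr11:78984947-78985174 on the minus strand, ending 23 bases before the start, and chr4:154928122-154928151 on the minus strand.
Cd274: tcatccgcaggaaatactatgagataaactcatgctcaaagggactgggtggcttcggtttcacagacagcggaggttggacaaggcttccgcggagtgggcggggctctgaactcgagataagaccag
Lgals9: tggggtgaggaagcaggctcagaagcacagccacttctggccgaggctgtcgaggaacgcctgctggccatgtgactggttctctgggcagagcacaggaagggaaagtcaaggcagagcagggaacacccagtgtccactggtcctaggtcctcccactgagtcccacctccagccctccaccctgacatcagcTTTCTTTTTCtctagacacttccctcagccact
Tnfrsf14: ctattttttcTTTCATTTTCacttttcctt
A match here is a description of letters and not a binding site, and the lack of one before Cd274 says only that these letters are not in its window.

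Cd47 (ENSMUSG00000055447, chromosome 16, 49800533 to 49915010, plus strand), the ligand of SIRPα, had 2982, 2891 and 2754 normalized counts in shControl and 3769, 3928 and 3545 in shPrmt1 libraries. The groups did not overlap, and of the 5 genes that rose in the knockdown this was the smallest change. The mean rose 1.30-fold, from 2876 ± 115 to 3747 ± 193 (SD, n = 3 each), a log2 fold change of 0.38 (SE 0.06, limma adjusted p = 0.00696). With vehicle it had 14833, 12245 and 13058, with MS023 14648, 15278 and 15792, and with GSK3368715 14296, 17338 and 15738. The first vehicle library lay among the treated ones, and neither comparison was called, at log2 fold changes of 0.19 for MS023 (95% interval 0.01 to 0.37, limma adjusted p = 0.109) and 0.24 for GSK3368715 (95% interval 0.06 to 0.42, limma adjusted p = 0.0961). Without vehicle 1 both were called, at 0.27 (limma adjusted p = 0.0287) and 0.32 (limma adjusted p = 0.0331), the lowest of 20 alternatives, which ran up to 0.284 and 0.253.

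Pvr and Nectin2 encode CD155 and CD112, adhesion proteins that engage the inhibitory receptor TIGIT and the activating receptor DNAM-1, which Cd226 encodes. Both lie on the minus strand of chromosome 7, Pvr (ENSMUSG00000040511) at 19903578 to 19921160 and Nectin2 (ENSMUSG00000062300) at 19716644 to 19750483. Pvr was the one ligand gene that fell. With vehicle it had 9781, 8113 and 9399 normalized counts, with MS023 5912, 7135 and 6478, and with GSK3368715 6212, 6980.0 and 6276. Every treated library was below every vehicle library. The log2 fold change was -0.48 for both inhibitors (SE 0.09 for each, limma adjusted p = 0.00259 for MS023 and 0.00776 for GSK3368715), with means of 6508 ± 612 and 6489 ± 426 against 9098 ± 874 (SD, n = 3 each). In the knockdown, Pvr had 2063, 2184 and 1913 normalized counts in shControl and 1722, 1750.3 and 1744 in shPrmt1 libraries. These groups did not overlap either, and the log2 fold change of -0.24 (95% interval -0.39 to -0.08) missed the threshold (limma adjusted p = 0.0515). It was called with DESeq2 on the recovered reads (adjusted p = 0.0214) and in limma with replicate number as a block (adjusted p = 0.0295), with a filter of 50 normalized counts (adjusted p = 0.0492) and with libraries scaled to the same upper quartile (adjusted p = 0.0440). It was also called without shPrmt1 2 (limma adjusted p = 0.0272), and over 16 alternatives the adjusted p ran from 0.0214 to 0.174.

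Nectin2 went the other way with the inhibitors. Vehicle libraries had 2529.8, 1903 and 2225 normalized counts of it, MS023 libraries 2740.4, 2875 and 3121, and GSK3368715 libraries 2518, 2808 and 2659. The MS023 libraries were above all vehicle libraries, and one GSK3368715 library was just below the highest vehicle library. MS023 raised the mean 1.31-fold, from 2219 ± 313 to 2912 ± 193 (SD, n = 3 each), a log2 fold change of 0.40 (SE 0.10, limma adjusted p = 0.0115), and GSK3368715 gave 0.27 without a call (95% interval 0.06 to 0.48, limma adjusted p = 0.105). Nectin2 had 345, 312 and 350.5 normalized counts in shControl and 488, 303 and 443 in shPrmt1 libraries. The second shPrmt1 library was below all controls and the other 2 above them, and the log2 fold change of 0.27 was not called (95% interval -0.12 to 0.65, limma adjusted p = 0.318). Single libraries decided these calls: without shPrmt1 2 the knockdown value became 0.47 (limma adjusted p = 0.00873), while without shPrmt1 1 it became 0.13 (limma adjusted p = 0.630), without vehicle 1 the GSK3368715 value became 0.37 (limma adjusted p = 0.0260), and without MS023 3 the MS023 value of 0.35 lost its call (limma adjusted p = 0.0503). Over all alternatives the adjusted p ran from 0.00873 to 0.630 in the knockdown, from 0.000969 to 0.0503 with MS023 and from 0.0260 to 0.238 with GSK3368715. The antisense gene Gm20512 shares 135 of the 3494 exon bases of Nectin2.

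Tnfrsf14 (ENSMUSG00000042333, chromosome 4, 154921933 to 154928563, minus strand) encodes HVEM, which engages the inhibitory receptors BTLA and CD160 and the cytokine LIGHT. With vehicle it had 96.5, 75.1 and 123 normalized counts, with MS023 135, 171 and 244, and with GSK3368715 127, 151 and 177. Neither set of treated libraries overlapped vehicle, and the MS023 libraries were the most spread. MS023 raised the mean 1.87-fold, from 98.2 ± 24.0 to 183 ± 55.7 (SD, n = 3 each), a log2 fold change of 0.88 (SE 0.24, limma adjusted p = 0.0200), and GSK3368715 gave 0.64 without a call (95% interval 0.11 to 1.17, limma adjusted p = 0.119). Up to 13.8% of its longest transcript is at least 95% identical to a stretch in transcripts of other genes, and reads from that stretch may not be assigned to Tnfrsf14 with certainty. The MS023 call was lost without vehicle 2 (0.70, limma adjusted p = 0.0582), without MS023 2 (0.91, limma adjusted p = 0.0509) and without MS023 3 (0.65, limma adjusted p = 0.0795), and held in the other 17 of 20 alternatives, with adjusted p from 0.00342. In the knockdown experiment Tnfrsf14 was near the limit of these depths, with 20.2, 13.7 and 7.74 normalized counts in shControl (23, 19 and 7 reads) and 24.0, 18.2 and 22.5 in shPrmt1 libraries (21, 15 and 22 reads). Those groups overlapped, and the log2 fold change of 0.68 had a 95% interval of -0.17 to 1.53 (limma adjusted p = 0.250). It was 0.34 when the third shControl library was left out. Tnfrsf14 passed the filter there only with the help of the shPrmt1 libraries, so this value is no support for a change.

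Nt5e (ENSMUSG00000032420, chromosome 9, 88327197 to 88372092, plus strand) encodes CD73, the surface enzyme that releases adenosine from AMP. It had 0 reads in 14 libraries and 1 read, or 1.49 normalized counts, in the third GSK3368715 library. CD73 RNA was not detectable above the floor of 3 reads in any library.

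**Figure D3:**
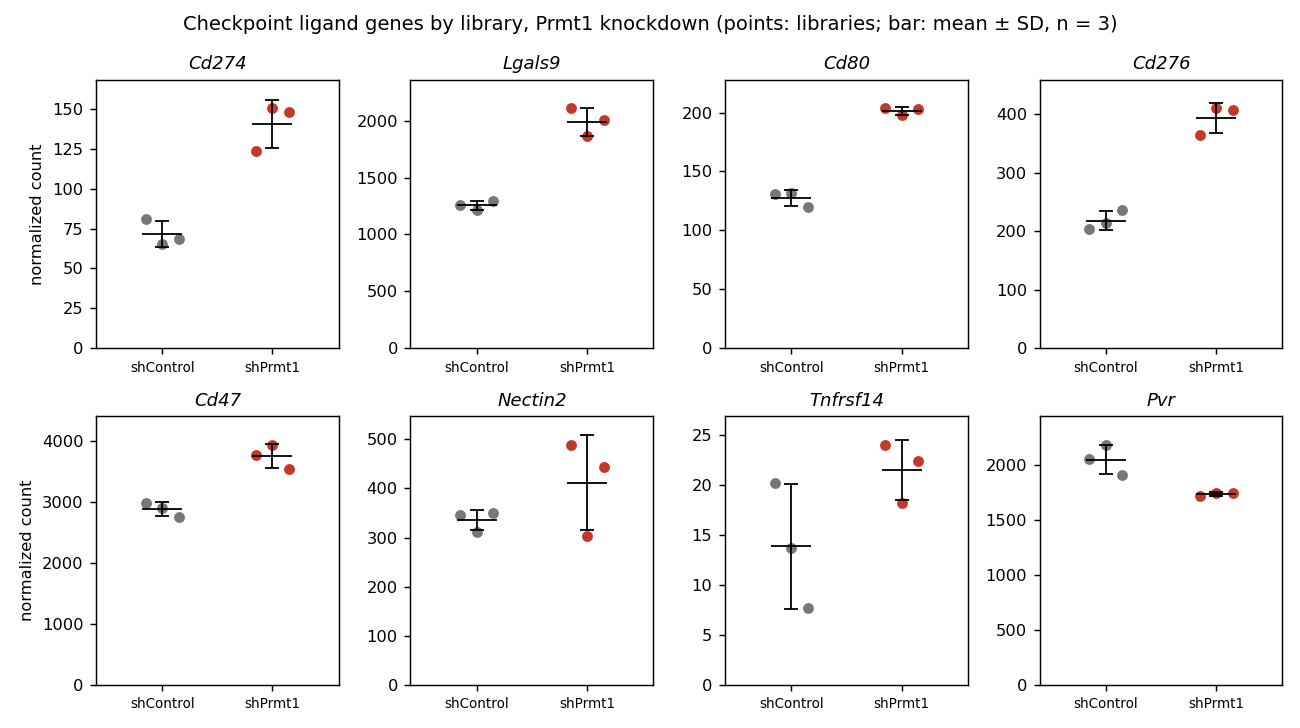
Normalized counts (vertical axes, from 0) of the 8 detected ligand genes in each shControl and shPrmt1 library, with bars for the mean ± SD of 3 libraries. Cd274, Lgals9, Cd80, Cd276 and Cd47 have every shPrmt1 point above every shControl point, Pvr has them below, and Nectin2 and Tnfrsf14 overlap.

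**Figure D4:**
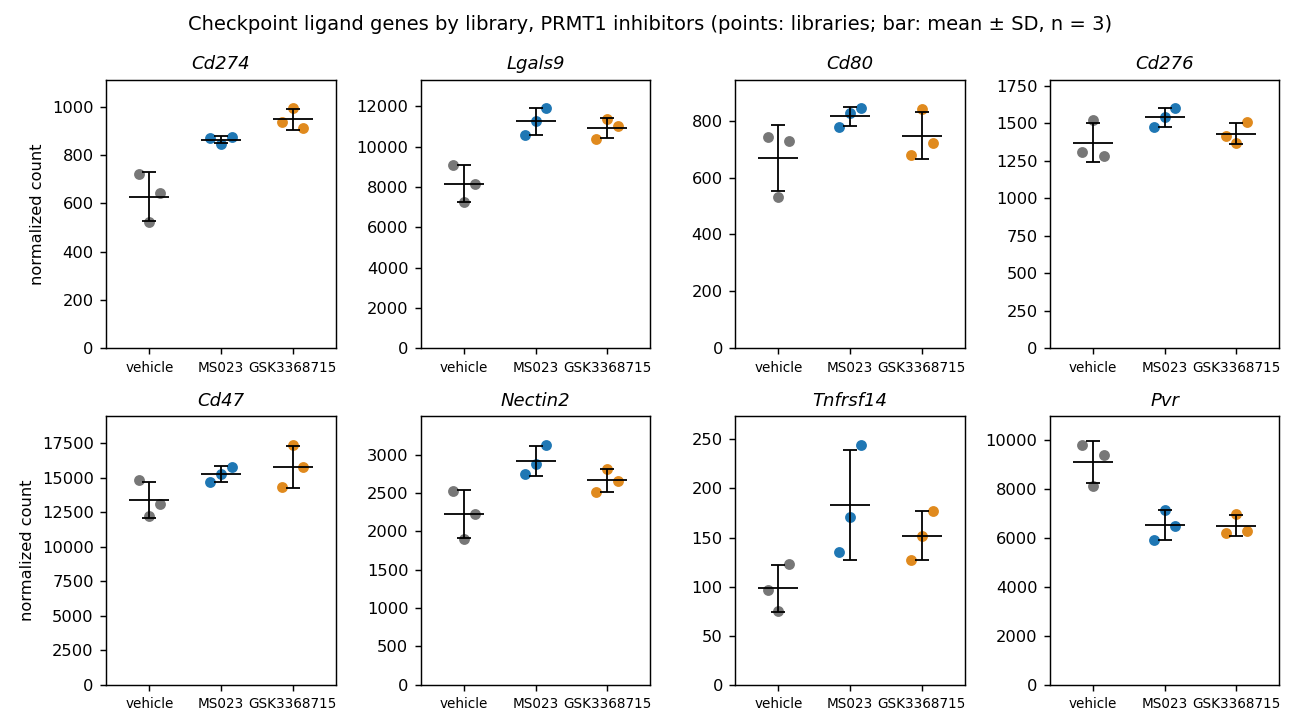
Normalized counts (vertical axes, from 0) of the same 8 genes in each vehicle, MS023 and GSK3368715 library, with bars for the mean ± SD of 3 libraries. Cd274 and Lgals9 rise with both inhibitors, from 628 and 8160.4 with vehicle, and Pvr falls from 9098 to 6508 and 6489.

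MS023 and GSK3368715, small molecules given at the same dose for the same time, were compared with each other over the 8 tested genes. None differed at the threshold of limma, nor at an unadjusted p under 0.05, and edgeR and DESeq2 on the recovered reads called 0 as well. Of all genes tested, limma called 0.515%, edgeR 69 of 13014 and DESeq2 377 of 11494. The log2 difference, GSK3368715 minus MS023, was -0.002 for Pvr (95% interval -0.19 to 0.19) and -0.04 for Lgals9 (95% interval -0.22 to 0.14), so a difference beyond those bounds lay outside the interval for these genes. Cd274 gave 0.13 (95% interval -0.10 to 0.37). The interval was widest for Tnfrsf14, from -0.77 to 0.29, within which neither a sizeable difference nor none can be told. Prmt1 RNA itself was 15611 ± 488 normalized counts with vehicle, 14826 ± 661 with MS023 and 15489 ± 806 with GSK3368715 (SD, n = 3 each) and was not called in either comparison (limma adjusted p = 0.351 and 0.914).

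The ligand genes differed among themselves in level far more than any of them changed. Per kb of exon, taken over the union of a gene's annotated exons, shControl cells had 589 ± 18.4 normalized counts of Lgals9, 458 ± 18.3 of Cd47, 335 ± 22.2 of Pvr, 96.1 ± 6.01 of Nectin2, 59.6 ± 4.57 of Cd276, 34.4 ± 1.88 of Cd80, 19.8 ± 2.27 of Cd274 and 9.66 ± 4.35 of Tnfrsf14 (SD, n = 3). No neighbours in this order overlapped in their libraries. In shPrmt1 cells the order of the means was the same, and Nectin2 (86.7 to 139.7 per kb) and Cd276 (99.4 to 112) overlapped. In the inhibitor experiment the order with vehicle was again the same, with Cd80 (144 to 201 per kb) and Cd274 (144 to 199) overlapping. With either inhibitor Cd274 lay above Cd80, at 238 ± 4.14 against 220.1 ± 9.37 per kb with MS023 and 261 ± 11.6 against 202 ± 22.4 with GSK3368715 (SD, n = 3), without overlap of the libraries. PD-L1 RNA was thus among the scarcer of the detected ligand RNAs in these cells, and galectin-9 and CD47 RNA the most abundant.

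**Figure D5:**
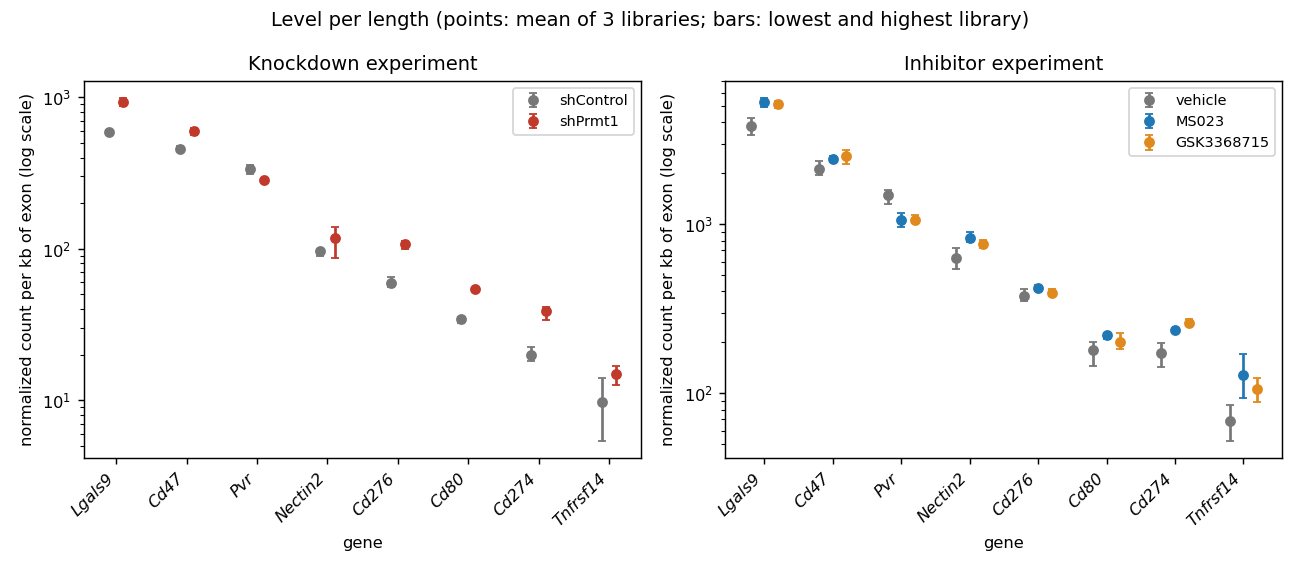
Normalized counts per kb of exon (log scale) of the 8 detected ligand genes in the knockdown experiment (left) and the inhibitor experiment (right), with points for the mean of 3 libraries and bars from the lowest to the highest library. The order runs from Lgals9, at 589 per kb in shControl and 3819 with vehicle, down to Tnfrsf14, at 9.66 and 68.3.

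The regulators of PD-L1, a list of 29 genes from interferon receptors to ubiquitin ligases, were all tested. In the knockdown, 4 of the 29 rose and none fell. Counted in either direction, that share is near the 14.7% of all genes called, of which 7.5% higher and 7.17% lower. Among the 4 were Irf9 (log2 fold change 0.64, limma adjusted p = 0.000955) and Stat2 (0.60, limma adjusted p = 0.00342), transcription factors of the type I interferon response, and the kinase Jak1 (0.30, limma adjusted p = 0.0384). With MS023 and GSK3368715, Irf9 gave 0.27 and 0.26 and Jak1 0.09 and 0.15, all uncalled (limma adjusted p at least 0.0606). With MS023, 6 rose and 4 fell, where 27.9% of all genes were called, and with GSK3368715 6 rose and 1 fell, where 9.64% were. Stat2 rose by 0.66 and 0.59 on the log2 scale, and Irf1, a direct activator of the PD-L1 gene, by 0.48 and 0.50 (limma adjusted p at most 0.00409 for each of these values). In the knockdown Irf1 gave 0.14 and was not called (limma adjusted p = 0.246). Hif1a, the transcription factor of the response to low oxygen, was among those that fell with MS023 (by 0.29, limma adjusted p = 0.00417) and was the one that fell with GSK3368715 (by 0.25, limma adjusted p = 0.0223). When each library was scaled to the same total, 8 rose and 1 fell with MS023. The median log2 fold change of the list was 0.10 in the knockdown, 0.05 with MS023 and 0.05 with GSK3368715.

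The genes whose 3 fold changes lay nearest to those of Cd274 were searched among 10123 genes whose control groups averaged 50 or more normalized counts in both experiments. The nearest, by root mean square difference of the log2 fold changes in shPrmt1, MS023 and GSK3368715, was Ddx60 at 0.024, an interferon-induced RNA helicase, with 0.99, 0.50 and 0.59 beside 0.96, 0.47 and 0.60 for Cd274. Other near genes were Ogn at 0.062, which encodes the matrix proteoglycan osteoglycin, Tmem106a at 0.080, and Nmi at 0.081, which encodes an interferon-induced protein. Among the ligand genes Lgals9 was nearest to Cd274, at 0.20, and Pvr farthest, at 1.09. These distances describe 15 libraries and 3 comparisons, of which the 2 with inhibitors share their controls.

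Genes beside Cd274 and Pdcd1lg2 on chromosome 19 were looked at as a list of 7. Of the 5 tested in the knockdown 2 rose, Ermp1, which encodes a metallopeptidase of the endoplasmic reticulum (0.48, limma adjusted p = 0.00350), and Ric1, which encodes part of a Golgi exchange factor (0.30, limma adjusted p = 0.0414). Ermp1 was also the single one called of 6 tested with each inhibitor, at 0.41 with MS023 (limma adjusted p = 0.000466) and 0.31 with GSK3368715 (limma adjusted p = 0.00693). The shares of all genes called were 14.7% in the knockdown, 27.9% with MS023, above that of the neighbours, and 9.64% with GSK3368715. Counting higher calls only, those shares were 7.5%, 13.7%, below that of the neighbours, and 5.16%. No neighbour was called lower.

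Other co-signalling ligands were a list of 25, most of which had too few reads: 7 were tested in the knockdown and 11 in the inhibitor experiment. In the knockdown 3 of the 7 were called higher and 1 lower, beside 14.7% of all genes called. Ceacam1, an adhesion protein and ligand of TIM-3, had 21.1, 15.8 and 9.95 normalized counts in shControl and 76.6, 42.4 and 93.9 in shPrmt1 libraries. It was called higher, but it reached the filter only with the help of the shPrmt1 libraries, so its call is no support for a change. Thbs1, which encodes thrombospondin-1, a secreted ligand of CD47, rose by 0.60 (limma adjusted p = 0.00149), and H2-T23, which encodes Qa-1, the ligand of the NKG2A receptor, by 0.43 (limma adjusted p = 0.0446). Tnfsf9, the costimulatory ligand 4-1BBL, fell by 0.47 on the log2 scale (limma adjusted p = 0.0283). With each inhibitor 3 of the 11 rose and none fell. Of all genes tested, 27.9% were called with MS023, 13.7% higher, and 9.64% with GSK3368715, 5.16% higher. Side by side for MS023 and GSK3368715, on the log2 scale, Tnfsf10, the death ligand TRAIL, rose by 0.95 and 1.47, H2-T23 by 0.67 and 0.58, and Thbs1 by 0.48 and 0.55 (limma adjusted p at most 0.0218). Scaling to the same total made 5 rise with MS023.

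Receptors and partners of the ligands, which are genes of immune cells for the most part, were a list of 17, with 4 tested in the knockdown and 6 in the inhibitor experiment. Tigit, the receptor of the Pvr and Nectin2 products, had reads in this culture, with a mean of 842 ± 96.9 normalized counts with vehicle, 620.3 ± 39.1 with MS023 and 655 ± 54.9 with GSK3368715 (SD, n = 3 each). It was the single one of the 6 called with either inhibitor, beside 27.9% of all genes with MS023 and 9.64% with GSK3368715. Tigit fell with both, by 0.44 (limma adjusted p = 0.00918) and 0.36 (limma adjusted p = 0.0490), and the latter call was lost with libraries scaled to the same total. Under that scaling, 1 of the 6 was called higher and 1 lower with MS023. In the knockdown 3 of the 4 were called, 2 higher and 1 lower, beside 14.7% of all genes. Havcr2, which encodes TIM-3, was one of them, with 4, 6 and 3 reads in the shControl and 16, 17 and 19 in the shPrmt1 libraries. It passed the filter on low values only through the shPrmt1 libraries, so it had to differ, and its call is no support for a change. Rgmb, a partner of PD-L2, rose by 0.58 (limma adjusted p = 0.00184), and Tnfrsf9, the receptor 4-1BB, fell by 1.13 on the log2 scale (limma adjusted p = 0.00346). The summed leukocyte markers given above overlapped between the groups of each experiment. Since most of that sum is Cd68, it does not follow the T cell markers. Cd8a, a T cell marker, averaged 13.8 normalized counts with vehicle, 5.45 with MS023 and 10.5 with GSK3368715. It was called with neither inhibitor, and its bearing on the Tigit values was not tested.

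Around adenosine, the list of 14 had 5 genes tested in the knockdown and 7 in the inhibitor experiment. With each inhibitor 2 of the 7 were called higher. Of all genes, 27.9% were called with MS023, 13.7% higher, and 9.64% with GSK3368715, 5.16% higher. In the knockdown limma called none of the 5, beside 14.7% of all genes tested. The lowest limma adjusted p was 0.118, for Adk, the kinase that returns adenosine to AMP. Entpd1, which encodes CD39, the enzyme that makes the AMP that CD73 uses, was among the genes called with the inhibitors, with 1 read in each vehicle library, 23, 27 and 15 reads with MS023 and 23, 18 and 6 with GSK3368715. It passed the filter only through the inhibitor libraries, so its call is no support for a change, and since the vehicle reads are under the floor no fold is given. Pnp, a phosphorylase that breaks down inosine, rose by 0.29 (limma adjusted p = 0.0134) and 0.30 (limma adjusted p = 0.0258) on the log2 scale.

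The second vehicle library was the lowest of the 3 for 7 of the 8 tested ligand genes, all but Cd276, where 38.5% of all genes tested had their lowest vehicle value in it. It entered every comparison with vehicle above, and the differences of the shPrmt1 effect from the inhibitor effects. The values of GSK3368715 against MS023 do not use it, though their shared fit does. Without it Cd274 was still called, at 0.34 with MS023 and 0.48 with GSK3368715, as were Lgals9, at 0.39 and 0.34, and Pvr, at -0.56 and -0.57. The Nectin2 value with MS023 remained called, at 0.29 (limma adjusted p = 0.0245), and with GSK3368715 was 0.16 in place of 0.27. The Tnfrsf14 call with MS023 was lost, and the values of Cd80 were 0.15 and 0.016.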

How the data were processed

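Libraries of poly(A) RNA (15 in all) were sequenced paired-end. According to the submitters' processing notes and methods, the authors quantified reads with Salmon 1.4.0 and normalized gene counts with DESeq2, the build given being mm10. The deposited values are a signal, counts divided by DESeq2 size factors, in a table per experiment. Each value was a whole multiple of what 1 read is worth in its library (100% of values within 0.01 of a whole read), so reads were recovered. The authors' 3 tables of fold changes and p-values were not used.

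Genes reaching 10 normalized counts in 3 or more libraries were tested with limma 3.58.1 (R 4.3.3, trend, two-sided) on log2(normalized count + 1), the 9 inhibitor libraries in one fit and all 15 in another for differences between effects. P-values were adjusted by Benjamini-Hochberg over all genes tested (11485, 13014 and 11471) and called under 0.05. Alternatives were pseudocounts, filters, scalings, fits of only the groups compared, a replicate block, no trend, each library left out, and edgeR 4.0.16 and DESeq2 1.42.0 on recovered reads. The tests were checked on simulated data. Named genes are the 10 members, those among the 5 nearest to Cd274, and genes of the companion lists that were called, except for an item that is not reported here. Members and lists were chosen with earlier results of these data known. The submitters call the libraries biological replicates and do not name separate cultures, so p-values measure the spread between these libraries. Positions and exons are from GENCODE M21, promoter windows from RefSeq (GRCm38.p6). Intervals are from limma and rest on the spread between libraries, and floors on reads cover counting error only.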

Additional observations from a re-analysis of the deposited data

Results flagged for a closer look

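Cd276 drew attention because its knockdown effect and its inhibitor effects differed in a test of the difference itself. Its log2 change was greater in shPrmt1 cells by 0.68 than with MS023 (95% interval 0.42 to 0.94, limma adjusted p = 0.00325) and by 0.78 than with GSK3368715 (95% interval 0.53 to 1.04, limma adjusted p = 0.00164). All 3 shPrmt1 libraries were above the shControl libraries, while 1 of the 3 MS023 libraries and all 3 GSK3368715 libraries were below the highest vehicle library. The call held in all 23 alternatives for each difference, from 0.60 to 0.74 and from 0.71 to 0.84. The experiments differ in hairpin line, DOX, dose and duration, and these cannot be told apart from PRMT1 itself.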

How the results depend on the processing

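With another setting and all libraries, 463 recomputed values kept their direction and their side of the threshold, 2 changed sign and 4 became called. The difference of the shPrmt1 and GSK3368715 effects changed sign for Tnfrsf14 with a pseudocount of 5 (-0.079) and for Nectin2 with the same total in every library (0.012), both uncalled, and Pvr became called in the knockdown under 4 settings. In the inhibitor experiment replicate numbers did not pair the libraries, with correlations of -0.10 to 0.11 for the same number and -0.13 to 0.17 for different numbers. In the knockdown each library correlated best with its own number, though weakly (0.06 to 0.12, against -0.09 to 0.03 for different numbers). Whether the knockdown libraries were paired by number was not tested. With replicate number as a block, Pvr was called in the knockdown (limma adjusted p = 0.0295) and 2671 genes in place of 1684, and no other ligand gene changed its call. Over all genes, GSK3368715 against vehicle gave 597 calls with only those groups fitted, in place of 1254, and GSK3368715 against MS023 gave 67, or 377 by DESeq2, 8 without trend, 4 with the block and 38 without a filter. Scaling to the same total moved the split of calls to 1082 higher of 1748 in the knockdown, from 861 of 1684, and to 2200 of 3709 with MS023, from 1784 of 3625.

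With one library left out, all-gene calls ran from 652 to 2472 in the knockdown, 2409 to 3726 with MS023, 586 to 1274 with GSK3368715, 2 to 114 between the compounds, and 505 to 996 and 286 to 562 for the differences of the shPrmt1 effect from those of MS023 and GSK3368715. The number of ligand genes called then ran from 5 to 7 in the knockdown (7 without shPrmt1 2), 3 to 6 with MS023 (3 without MS023 3, 6 without vehicle 1), 3 to 5 with GSK3368715 (5 without vehicle 1), 1 to 3 for the difference of the shPrmt1 and MS023 effects and 1 to 2 for that of the shPrmt1 and GSK3368715 effects (3 and 2 without vehicle 2). Values that changed sign were all uncalled: for the difference between shPrmt1 and MS023 effects, Nectin2 (-0.27 to 0.071) and Tnfrsf14 (-0.54 to 0.11), for that between shPrmt1 and GSK3368715 effects, Nectin2 (-0.14 to 0.20) and Tnfrsf14 (-0.30 to 0.34), and between the compounds, Cd47 (-0.022 to 0.12) and Pvr (-0.069 to 0.066). Read depth limits Tnfrsf14 in the knockdown, at 7 to 23 reads a library, and leaves Pdcd1lg2 and Nt5e without a value.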
